A study of Mus musculus with 24 samples.

Results

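The collagen gene family was described in the mammary glands of mice that differ in genotype and in stage of pregnancy. Members were the array's gene probes whose gene name has the form Col, a number, the letter a and a number, and 44 genes with 92 probes met this among 36591 genes named on the array. They were sorted by known structure into 11 fibrillar, 8 basement membrane and 25 other collagens. Of the 44, 38 passed the filter on dim probes and were tested (10 fibrillar, 7 basement membrane and 21 other), among 22382 genes tested in all. The 6 members that did not pass were Col24a1 among the fibrillar collagens, Col4a3 in basement membrane, and Col10a1, Col19a1, Col22a1 and Col25a1. These were well above background on 0 to 5 arrays in any group, and no level is given for them.

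Arrays came from 24 C57BL/6 females, 1 array per mouse, from the inguinal gland number 4 without its lymph node. There were 5 mice at pregnancy day 18 and 7 virgins aged 8 weeks that were homozygous for a SOCS2 knock-in allele carrying the R96C substitution, and 5 mice at day 18 and 7 virgins at 8 weeks that were wild type. No age is stated for the pregnant mice in the labels, so pregnancy and age cannot be told apart. SOCS2 dampens signalling from the growth hormone and prolactin receptors. The R96C change itself cannot be seen on an expression array, so the genotypes rest on the labels.

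Collagens are matrix proteins built as trimers of alpha chains wound into a long helix. The fibrillar types assemble into the cables that give connective tissue its strength, type IV chains form the sheet on which epithelium rests, and the remaining types coat fibrils, anchor cells or link the layers. In the mammary gland fibroblasts are the main source of fibrillar collagen, and the ducts and alveoli lie on basement membrane inside a fat pad that alveoli fill during pregnancy.

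Levels below are log2 signals of a gene's brightest kept probe relative to the array's 75th percentile, so a difference of 1 is a 2-fold difference. Levels of different genes are not set against each other, because probes differ in how well they hybridise. Calls were made at 0.05 on the p of limma's moderated test after Benjamini-Hochberg adjustment over all 22382 genes. Errors of differences are standard errors and errors of group means are SDs. For each gene the fit used a single spread shared by all groups. Outlying knock-in mice thus also widen the errors and raise the p of wild-type comparisons. Labelled RNA came from whole tissue, so fewer cells of a type and less RNA per cell cannot be told apart.

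Some arrays stood apart. The knock-in virgin 376 had 57003 spots well above background and a median negative control signal of 58.7, and the knock-in day-18 mouse 184 had 43055 spots and 6.76. The other 22 arrays had 33374 to 39174 such spots and 1.9 to 3.02. The knock-in virgin 198 had a mean level over 10 luminal epithelial markers of -3.47, where wild-type virgins had 0.46 to 2.74 and the median of its own group was 1.73, and a mean of 6.68 over 10 skeletal muscle markers. Muscle markers also reached 5.09 in knock-in day-18 mouse 211 and 6.20 in wild-type virgin 320. Counts of collagen genes without mice 376, 184 and 198 are given with the counts over all arrays.

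Most collagen genes were lower at day 18 than in virgins in both genotypes. In knock-in mice 20 of the 38 members were lower at day 18, 5 were higher and 13 did not pass the test, with a median log2 difference of -0.96. Over all genes tested, 20.4% were called lower and 22.6% higher (43.1% in either direction), and the median difference was 0.04. In wild-type mice 25 members were lower, 2 were higher and 11 did not pass, with a median of -1.36. There 20.8% of all genes were called lower and 21.0% higher (41.9% in either direction), and the median was 0.02. The same 20 genes were lower in both genotypes and the same 2, Col9a1 and Col4a5, were higher in both. Of the genes called lower, Col4a4, Col6a6, Col23a1, Col27a1 and, in wild-type mice, Col8a2 passed the filter on dim probes through virgin groups alone. Passing in this way favours a lower call. With no filter, 18 of 44 members were lower and 4 higher in knock-in mice, and 22 were lower and 2 higher in wild-type mice. Without mice 376, 198 and 184, 24 members were lower and 6 higher in knock-in mice, and 27 were lower and 7 higher in wild-type mice. These are all knock-in mice, so the wild-type differences stayed the same and only their errors and p changed. More genes were called over the whole array as well without these mice, 6080 lower and 6076 higher in knock-in mice and 6433 lower and 7015 higher in wild-type mice, against 4577 lower and 5061 higher in knock-in mice and 4658 lower and 4709 higher in wild-type mice over all arrays.

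**Figure D1:**
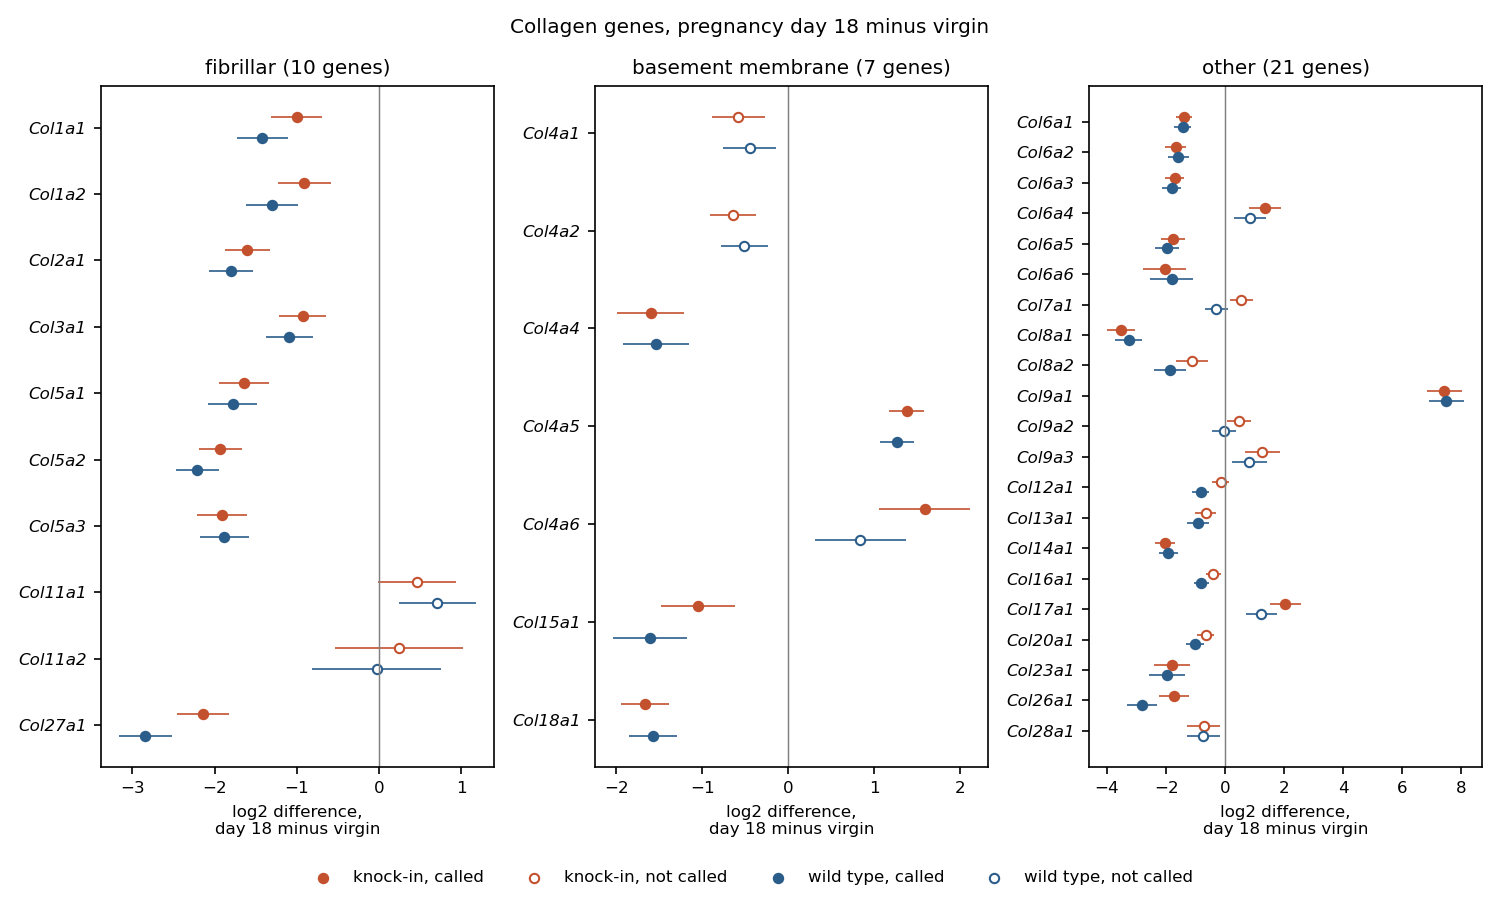
Log2 differences between pregnancy day 18 and virgin glands (horizontal axis, day 18 minus virgin) for the 38 tested collagen genes by class, with standard error bars, in knock-in mice (orange, upper point) and wild-type mice (blue, lower point); filled points passed an adjusted p under 0.05. Fibrillar points lie mostly left of 0, and Col9a1 lies furthest right, at 7.43 in knock-in and 7.50 in wild-type mice.

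Markers of other cells moved with these counts. All 10 fibroblast markers were lower at day 18 in both genotypes, with medians of -1.98 in knock-in and -1.96 in wild-type mice. Their mean level ran from 0.65 to 2.56 in knock-in day-18 mice and from 2.41 to 4.17 in knock-in virgins, with mouse 376 lowest and a median of 3.97. It was 1.06 to 2.29 in wild-type day-18 mice and 3.32 to 4.23 in wild-type virgins. Of 10 adipocyte markers 7 were lower in knock-in and 6 in wild-type mice. Higher were 6 of 10 luminal markers in knock-in and 5 in wild-type mice, and 9 of 10 myoepithelial markers in knock-in and 6 in wild-type mice. The part of these cells in the collagen differences was not tested.

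Among the fibrillar collagens, 8 of the 10 tested (80.0%) were lower at day 18 in each genotype and none was higher. Over all genes the share lower was 20.4% in knock-in and 20.8% in wild-type mice. The median difference of the fibrillar collagens was -1.30 in knock-in and -1.60 in wild-type mice. Again 8 were lower in each genotype without mice 376, 198 and 184, and Col11a1 was then higher in wild-type mice. Col11a1 and Col11a2, chains of the thin cartilage-type fibril, did not pass the test. Col11a1 differed by 0.46 ± 0.47 in knock-in and 0.71 ± 0.47 in wild-type mice, and Col11a2, which passed the filter through wild-type virgins alone, by 0.24 ± 0.78 in knock-in and -0.03 ± 0.78 in wild-type mice.

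Col1a1 and Col1a2 encode the chains of type I collagen, the main fibre of connective tissue. Col1a1 had levels of 5.77, 5.58, 4.66, 5.57 and 4.73 in the knock-in day-18 mice, against 4.62, 6.58 and 7.06 as the lowest, median and highest of the knock-in virgins. Wild-type day-18 mice had 5.18, 5.03, 4.97, 4.35 and 4.98, against 5.94, 6.3 and 6.81 in wild-type virgins. The wild-type groups did not overlap, and the knock-in groups did only through virgin 376, whose 4.62 lay below all day-18 mice but none of whose fellow virgins was under 5.91. The gene was 2.0-fold lower in knock-in mice (log2 difference -1.0 ± 0.31, limma adjusted p = 0.0128) and 2.67-fold lower in wild-type mice (-1.42 ± 0.31, adjusted p = 8.45e-04). Col1a2 was 1.88-fold lower in knock-in (-0.91 ± 0.32, adjusted p = 0.0243) and 2.45-fold lower in wild-type mice (-1.30 ± 0.32, adjusted p = 0.00212). The Col1a2 call in knock-in mice was lost without mouse 196, 210 or 239, and both knock-in calls were lost when only the knock-in groups entered the fit. With each array scaled to its median, where the median of all genes moved to 0.25 in knock-in and 0.19 in wild-type mice, neither gene passed in either genotype.

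The Col1a2 promoter is shown as that of a main fibrillar chain that was lower in both genotypes. It lies at chr6:4505368-4505617 on the plus strand of GRCm38.p6, the 250 bases before the start annotated by RefSeq, and capitals mark a CCAAT box, the element bound by NF-Y.
Col1a2: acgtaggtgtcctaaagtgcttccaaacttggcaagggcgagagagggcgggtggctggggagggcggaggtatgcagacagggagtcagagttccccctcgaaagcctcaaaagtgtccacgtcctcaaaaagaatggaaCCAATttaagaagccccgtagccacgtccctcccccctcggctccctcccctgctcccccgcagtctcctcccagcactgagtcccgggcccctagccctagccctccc

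Col3a1, the chain of type III collagen that forms thin fibres with type I, was 1.91-fold lower in knock-in (-0.93 ± 0.29, adjusted p = 0.0126) and 2.13-fold lower in wild-type mice (-1.09 ± 0.29, adjusted p = 0.00414). Its knock-in call was lost in the same single-genotype fit, and under median scaling neither genotype passed. Its 3 kept probes and the 3 of Col1a1 and of Col1a2 were all called lower in both genotypes, but sizes depended on the probe. The other Col3a1 probes differed by -1.92 and -1.78 in knock-in and by -2.69 and -2.46 in wild-type mice. Those of Col1a2 differed by -1.87 and -1.99 in knock-in and by -2.48 and -2.19 in wild-type mice. Those of Col1a1 stayed closer to its brightest probe, at -0.85 and -0.90 in knock-in and -1.25 and -1.40 in wild-type mice.

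The genes for type V collagen, which sits in the core of type I fibrils and limits their width, were also lower at day 18 in both genotypes. Col5a2 had -1.0, -0.74, -1.82, -1.68 and -1.32 in knock-in day-18 mice, against 0.10, 0.43 and 1.48 (lowest, median, highest) in knock-in virgins. In wild type it had -1.79, -1.13, -1.23, -1.59 and -1.25 at day 18, against 0.23, 0.82 and 1.39 in virgins. Every day-18 mouse lay below every virgin of its genotype. The gene was 3.82-fold lower in knock-in (-1.93 ± 0.26, adjusted p = 2.46e-06) and 4.61-fold lower in wild-type mice (-2.21 ± 0.26, adjusted p = 4.83e-07). 

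Col5a3, a further type V chain, had 3.39, 3.21, 2.63, 3.36 and 3.04 at day 18 in knock-in mice, against 3.28, 5.44 and 5.53 in the virgins. Levels in wild-type mice were 3.03, 3.29, 3.63, 2.83 and 3.36 at day 18, against 4.69, 5.06 and 5.70 in virgins. Virgin 376, at 3.28, was the single knock-in virgin within the day-18 range, and wild-type groups did not overlap. The gene was 3.75-fold lower in knock-in (-1.91 ± 0.30, adjusted p = 2.26e-05) and 3.69-fold lower in wild-type mice (-1.88 ± 0.30, adjusted p = 2.82e-05). Col5a1 was 3.12-fold lower in knock-in (adjusted p = 1.23e-04) and 3.43-fold lower in wild-type mice (adjusted p = 5.49e-05).

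Col27a1 encodes a fibrillar chain known from cartilage. It had -4.53, -4.85, -3.96, -3.55 and -5.10 at day 18 in knock-in mice, against -3.13, -2.38 and -1.29 in the virgins. In wild-type glands it had -5.56, -4.63, -4.43, -5.16 and -5.47 at day 18, against -3.00, -2.23 and -1.45 in virgins. No day-18 level reached the range of the virgins. The probe was well above background on 3 of 5 knock-in and 2 of 5 wild-type day-18 arrays and on all 14 virgin arrays. It was 4.42-fold lower in knock-in (-2.14 ± 0.32, adjusted p = 9.46e-06) and 7.14-fold lower in wild-type mice (-2.84 ± 0.32, adjusted p = 2.60e-07), and the knock-in call was lost under quantile normalization. The difference ran from -2.97 to -0.59 in knock-in and from -3.76 to -0.82 in wild-type mice over the other settings. Its size thus depended on the processing. The other kept Col27a1 probe differed by -2.11 in knock-in (adjusted p = 1.81e-05) and -1.84 in wild-type mice (adjusted p = 9.58e-05), where p was adjusted over all kept probes.

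Col2a1, the chain of cartilage's type II collagen, had 1.13, 1.30, 0.38, 0.88 and 0.02 in knock-in day-18 mice, against 1.73, 2.31 and 3.14 in knock-in virgins. It had 0.66, 0.51, 0.25, 0.14 and 1.34 in wild-type day-18 mice, against 1.89, 2.47 and 2.69 in wild-type virgins. The stages did not overlap in either genotype. The gene was 3.04-fold lower in knock-in (-1.60 ± 0.27, adjusted p = 4.64e-05) and 3.48-fold lower in wild-type mice (-1.80 ± 0.27, adjusted p = 1.30e-05). It rests on 1 probe, and of 7 cartilage markers 3 passed the filter, with 1 higher and 1 lower in each genotype.

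**Figure D2:**
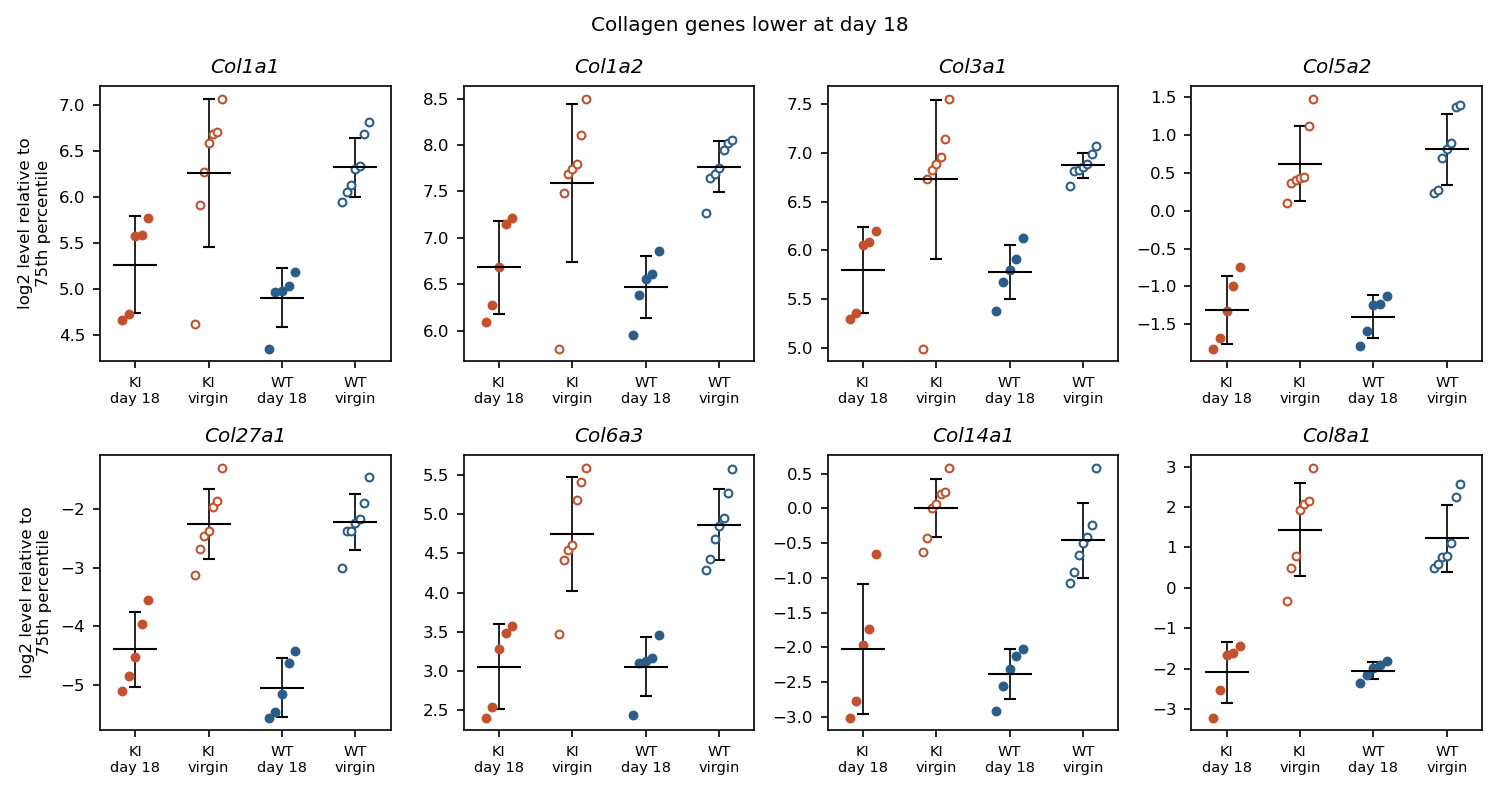
Log2 level relative to the array's 75th percentile (vertical axis) of 8 collagen genes in each mouse of the 4 groups, knock-in (KI, orange) left of wild type (WT, blue) and day 18 (filled) left of virgin (open); lines are means ± SD. Wild-type day-18 mice sit below all wild-type virgins in every panel, while knock-in virgin 376 sits at 4.62 for Col1a1, under all knock-in day-18 mice.

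Single mice were also compared between the stages. All day-18 mice lay below all virgins for 3 of the 10 fibrillar genes in knock-in mice and for 8 in wild-type mice. For 5 more fibrillar genes in knock-in mice, Col1a1, Col1a2, Col3a1, Col5a1 and Col5a3, virgin 376 was the single virgin that was not above all day-18 mice. Over all collagens this held for 5 genes in knock-in mice, where 7.72% of all tested genes were so separated, and for 21 in wild-type mice, where 18.8% were. Virgin 376 alone stood in the way for 11 more in knock-in mice, so these counts do not compare the genotypes. All day-18 mice lay above all virgins for 3 collagen genes in each genotype, Col9a1, Col4a5 and Col17a1, against 12.3% of all genes in knock-in and 20.5% in wild-type mice. Each of the 25 lower calls in wild-type mice kept its sign within all 3 slides. In knock-in mice 19 of 20 lower calls did, the exception being Col6a6, and 4 of 5 higher calls did, the exception being Col6a4.

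The basement membrane collagens were called in both directions. Of 7 tested, 3 were lower (42.9%) and 2 higher (28.6%) at day 18 in knock-in mice. In wild-type mice 3 were lower (42.9%) and 1 higher (14.3%). Over all genes 20.4% were lower and 22.6% higher in knock-in mice, and 20.8% lower and 21.0% higher in wild-type mice. The higher calls are 1 or 2 genes, a share not far from that of all genes. The median was -0.64 in knock-in and -0.51 in wild-type mice. Without mice 376, 198 and 184, 4 were lower and 2 higher in knock-in mice, and 5 were lower and 2 higher in wild-type mice. Col4a1 and Col4a2, which form the common type IV network and whose annotated starts lie 21 bp apart on opposite strands, did not pass in either genotype over all arrays. Col4a1 differed by -0.58 ± 0.31 in knock-in (adjusted p = 0.140) and by -0.45 ± 0.31 in wild-type mice (adjusted p = 0.269). Col4a2 differed by -0.64 ± 0.27 in knock-in (adjusted p = 0.0633) and by -0.51 ± 0.27 in wild-type mice (adjusted p = 0.137). Both genes were lower in both genotypes without mice 376, 198 and 184. Col4a1 then differed by -0.97 in knock-in (adjusted p = 7.51e-04) and -0.45 in wild-type mice (adjusted p = 0.0471), and Col4a2 by -0.99 in knock-in (adjusted p = 5.08e-04) and -0.51 in wild-type mice (adjusted p = 0.0204).

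Col4a5 in both genotypes and Col4a6 in knock-in mice were higher at day 18. They encode the type IV chains that join in a network found under some epithelia and smooth muscle, and they are transcribed in opposite directions from starts that lie 1343 bp apart on chromosome X. Col4a5 had 0.49, -0.05, 1.04, 0.26 and 0.77 in knock-in day-18 mice, against -1.22, -0.94 and -0.41 in knock-in virgins. Wild-type levels were 0.34, 0.71, 0.35, 0.95 and 0.10 at day 18, against -1.13, -0.82 and -0.31 in virgins. All day-18 mice were above all virgins in both genotypes. The gene was 2.6-fold higher in knock-in (1.38 ± 0.20, adjusted p = 7.93e-06) and 2.42-fold higher in wild-type mice (1.27 ± 0.20, adjusted p = 2.30e-05). Both calls were lost with scaling to spike-in RNA, under which the median of all genes was -0.78 in knock-in and -0.90 in wild-type mice. The second kept Col4a5 probe was higher by 1.36 in knock-in mice (adjusted p = 0.0219, over all kept probes). In wild-type mice that probe differed by 1.11 and did not pass (adjusted p = 0.0610).

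Col4a6 had 0.47, -0.37, 0.99, -0.32 and 0.95 at day 18 in knock-in mice, against -4.20, -0.62 and -0.10 in the virgins. In wild-type mice it had 0.25, 0.89, 0.58, 1.01 and 0.43 at day 18, against -1.70, 0.00 and 0.86 in virgins. The groups overlapped in both genotypes, in wild type through virgin 188 alone, and knock-in virgin 198 was far below its group. Col4a6 was 3.0-fold higher in knock-in mice (1.59 ± 0.53, adjusted p = 0.0190). It did not pass in wild-type mice (0.84 ± 0.53, adjusted p = 0.218), where spike-in scaling gave -0.08. The knock-in call was lost without mouse 210 or 239, under median or spike-in scaling and with only the knock-in groups fitted. Without mice 376, 198 and 184 it passed in both genotypes.

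The promoter windows of this pair are shown because the genes are neighbours and were both called higher at day 18 in knock-in mice. Each ends at or before its RefSeq start, with Col4a5 at chrX:141475169-141475369 on the plus strand and Col4a6 at chrX:141474096-141474326 on the minus strand of GRCm38.p6. Capitals mark a CCAAT box in the Col4a5 window, and the Col4a6 window holds none of the motifs searched.
Col4a5: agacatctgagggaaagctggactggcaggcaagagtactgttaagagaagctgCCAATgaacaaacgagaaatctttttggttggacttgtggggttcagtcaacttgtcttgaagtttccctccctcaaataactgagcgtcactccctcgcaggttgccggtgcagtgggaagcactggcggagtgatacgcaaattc
Col4a6: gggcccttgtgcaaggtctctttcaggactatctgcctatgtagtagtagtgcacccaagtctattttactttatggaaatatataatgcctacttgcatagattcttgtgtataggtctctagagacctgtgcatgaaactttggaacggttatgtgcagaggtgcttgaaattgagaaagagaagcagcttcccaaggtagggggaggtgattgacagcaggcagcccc

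The remaining type IV gene that passed the filter moved the other way. Col4a4, whose chain joins a network best known from the kidney glomerulus, had -3.43, -3.29, -5.10, -3.93 and -5.58 in knock-in day-18 mice, against -3.43, -2.41 and -2.09 in knock-in virgins. Its wild-type levels were -4.90, -4.16, -4.02, -5.38 and -4.30 at day 18, against -3.93, -3.11 and -2.23 in virgins. Knock-in groups overlapped, wild-type groups did not, and the probe was well above background on 3 of 5 day-18 arrays of each genotype. The gene was 3.03-fold lower in knock-in (-1.60 ± 0.39, adjusted p = 0.00200) and 2.90-fold lower in wild-type mice (-1.54 ± 0.39, adjusted p = 0.00284). Both calls were lost under quantile normalization and under normexp background correction.

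Col18a1 and Col15a1 encode the collagens of vessel and epithelial basement membranes that carry endostatin-type domains. Col18a1 had 1.40, 1.48, 1.16, 1.05 and 1.07 at day 18 in knock-in mice, against 1.26, 3.03 and 3.91 in virgins, with 376 the lowest and the next at 2.81. Wild-type mice had 1.81, 1.69, 1.89, 1.35 and 2.02 at day 18, against 2.97, 3.32 and 3.83 in virgins. Wild-type stages were apart, and the knock-in stages overlapped by virgin 376 alone. Col18a1 was 3.19-fold lower in knock-in (-1.67 ± 0.28, adjusted p = 5.28e-05) and 2.96-fold lower in wild-type mice (-1.57 ± 0.28, adjusted p = 1.16e-04), and did not pass under median scaling in either.

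Col15a1 had -2.62, -1.91, -1.04, -2.56 and -0.10 in knock-in day-18 mice, against -1.50, -0.59 and 0.44 in knock-in virgins. In wild type the levels were -2.57, -2.88, -2.92, -1.01 and -1.66 at day 18, against -1.38, -0.53 and 0.13 in virgins. The stages overlapped in both genotypes. It was 3.05-fold lower in wild-type mice (-1.61 ± 0.43, adjusted p = 0.00390). In knock-in mice the difference of -1.05 ± 0.43 lay just inside the threshold, and the call was kept in 11 of 38 other settings. The other kept Col15a1 probe differed by -1.91 in knock-in (adjusted p = 2.05e-05) and -1.84 in wild-type mice (adjusted p = 3.38e-05), where p was adjusted over all kept probes. Of 10 endothelial markers 7 were lower at day 18 in knock-in and 6 in wild-type mice, with medians of -0.86 in knock-in and -0.70 in wild-type mice, and the part of vessels in these values was not tested.

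**Figure D3:**
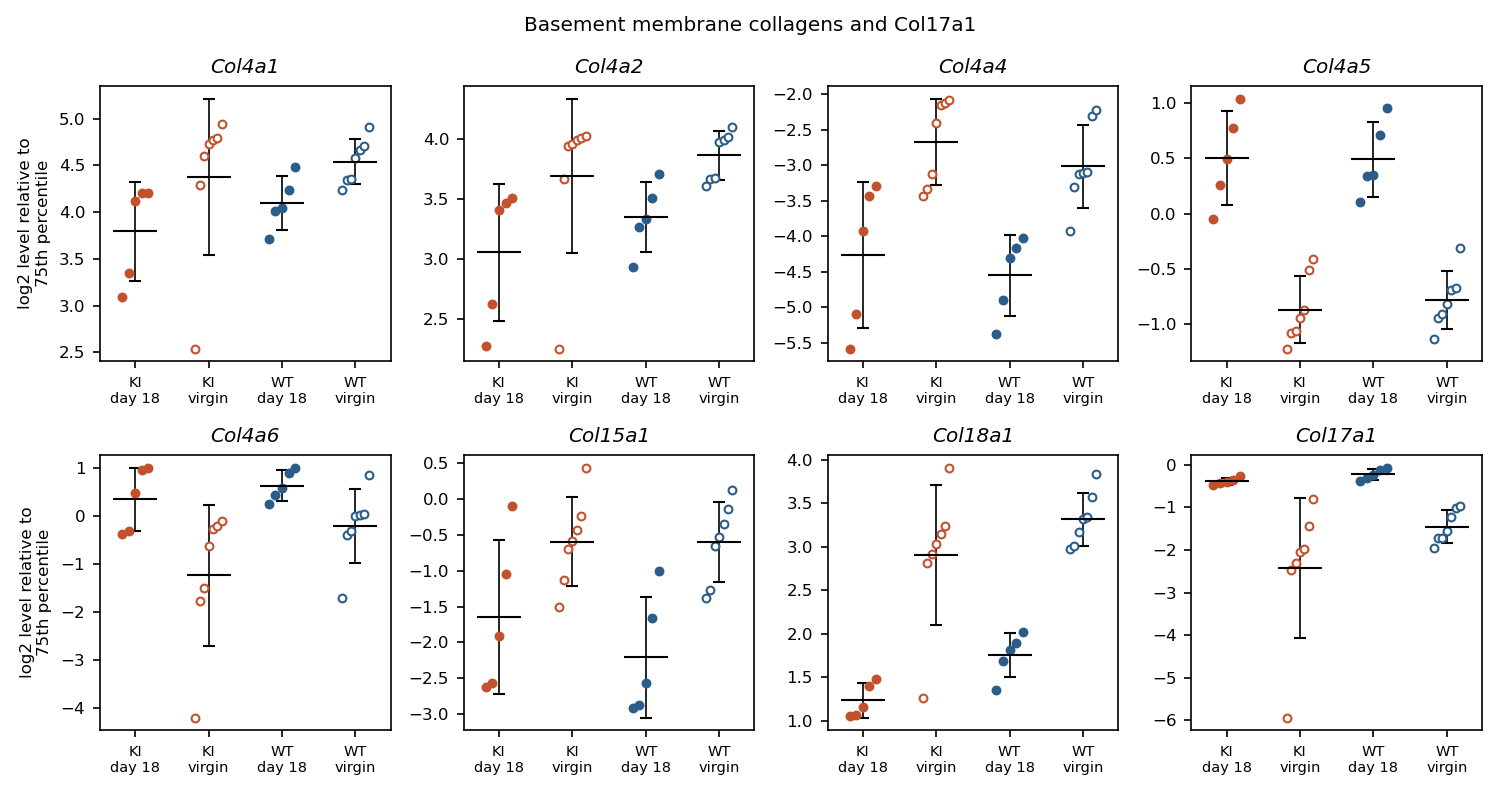
Log2 level relative to the array's 75th percentile (vertical axis) of the 7 tested basement membrane collagens and Col17a1 in each mouse of the 4 groups, knock-in (KI, orange) left of wild type (WT, blue) and day 18 (filled) left of virgin (open); lines are means ± SD. Col4a5 and Col17a1 are higher in every day-18 mouse than in every virgin, Col18a1 is lower at day 18, and knock-in virgin 198 sits at -5.94 for Col17a1.

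Among the other collagens, 9 of 21 were lower (42.9%) and 3 higher (14.3%) at day 18 in knock-in mice. In wild-type mice 14 were lower (66.7%) and 1 higher (4.76%). Over all genes 20.4% were lower and 22.6% higher in knock-in mice, and 20.8% lower and 21.0% higher in wild-type mice. Medians were -0.73 in knock-in and -1.01 in wild-type mice. With mice 376, 198 and 184 left out, 12 were lower and 4 higher in knock-in mice, and 14 were lower and 4 higher in wild-type mice. Col9a1 was the exception by size. It encodes a chain of type IX collagen, a fibril-associated collagen known from cartilage. Its RefSeq starts, 17593 bp apart, give a longer mRNA, which codes for an added globular domain at the amino end, and a shorter one. One probe is shared by both mRNAs and the other lies in the longer mRNA alone.

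The shared Col9a1 probe had 4.66, 4.71, 4.54, 3.99 and 4.22 in knock-in day-18 mice, against -4.80, -2.92 and -0.74 in knock-in virgins. Wild-type mice had 5.49, 4.17, 5.19, 4.60 and 4.16 at day 18, against -4.63, -2.69 and -1.54 in virgins. Every day-18 gland was far above every virgin gland, and the probe was well above background on all 24 arrays. The level was 173-fold higher in knock-in (7.43 ± 0.60, adjusted p = 2.06e-09) and 181-fold higher in wild-type mice (7.50 ± 0.60, adjusted p = 1.94e-09). Col9a1 was the single member called higher in both genotypes under every setting tried. The difference within single slides ran from 5.93 to 9.28 in knock-in and from 6.77 to 8.39 in wild-type mice.

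The probe for the longer mRNA gave no such signal. It was well above background on 1 of 5 knock-in day-18 arrays and 2 of 7 knock-in virgin arrays, and on 0 of 5 wild-type day-18 and 0 of 7 wild-type virgin arrays. Its levels were -7.65, -2.29, -7.49, -7.83 and -5.94 in knock-in day-18 mice, and -7.99, -7.03 and -0.15 in knock-in virgins. In wild-type glands they were -7.03, -6.53, -6.82, -7.38 and -6.63 at day 18, and -8.26, -7.29 and -6.10 in virgins. The 3 arrays above background were day-18 mouse 184 and virgins 376 and 251, of which 184 and 376 had the most spots above background of all arrays. No fold is given for a probe below background at both stages.

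The promoter windows before the starts of both mRNAs are printed, with the probe that lies in the longer mRNA alone. The shared probe is not printed. Whether the longer mRNA was absent or its probe hybridised poorly was not tested. The upstream promoter, of the longer mRNA, lies at chr1:24177360-24177588 and the downstream promoter, of the shorter one, at chr1:24194953-24195202, both on the plus strand of GRCm38.p6, from RefSeq. The probe of the longer mRNA lies at chr1:24201545-24201604 on mm9, the build of the array files. Capitals mark a CCAAT box in the downstream promoter, and the upstream window as printed holds none of the motifs searched.
Col9a1 upstream promoter: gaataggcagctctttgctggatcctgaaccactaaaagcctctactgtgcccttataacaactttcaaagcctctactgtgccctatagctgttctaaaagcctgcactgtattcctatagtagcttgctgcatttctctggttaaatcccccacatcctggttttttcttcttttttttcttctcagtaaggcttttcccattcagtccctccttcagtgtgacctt
Col9a1 downstream promoter: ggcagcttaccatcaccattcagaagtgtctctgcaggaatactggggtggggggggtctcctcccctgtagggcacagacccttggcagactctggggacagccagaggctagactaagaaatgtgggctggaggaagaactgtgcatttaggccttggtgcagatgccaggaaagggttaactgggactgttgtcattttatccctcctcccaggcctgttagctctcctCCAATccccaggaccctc
Col9a1 probe of the longer mRNA: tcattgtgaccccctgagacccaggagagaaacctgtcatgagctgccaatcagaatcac

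**Figure D4:**
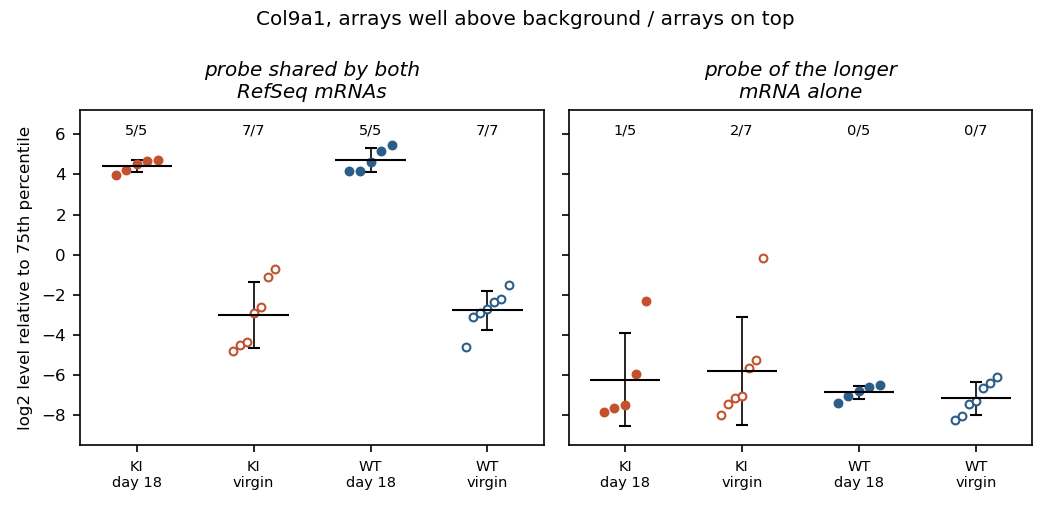
Log2 level relative to the array's 75th percentile (vertical axis) of the 2 Col9a1 probes in each mouse, knock-in (KI, orange) left of wild type (WT, blue) and day 18 (filled) left of virgin (open); lines are means ± SD and the numbers on top are arrays well above background. The shared probe lies between 3.99 and 5.49 at day 18, and the probe of the longer mRNA was above background on 3 of the 24 arrays.

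The motifs searched were the CCAAT box, the core promoter element TATAAA and the STAT5 element TTCNNNGAA, on both strands of the 250 bases before each RefSeq start. At least 1 window was found for 35 of the 44 members, 38 windows in all. The CCAAT box occurred in 34.2% of the collagen windows (13 windows) and 33.8% of all 32851 windows. TATAAA was found in 13.2% of the collagen windows (5) and 12.4% of all. The STAT5 element was found in 5.26% of the collagen windows (2) and 7.02% of all. These shares were close to those of all genes, and a match of letters is not a binding site.

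The partner chains of type IX collagen did not pass the test over all arrays. Col9a2 differed by 0.46 ± 0.41 in knock-in (adjusted p = 0.400) and -0.04 ± 0.41 in wild-type mice (adjusted p = 0.951). Col9a3 differed by 1.26 ± 0.59 in knock-in (adjusted p = 0.0937) and 0.82 ± 0.59 in wild-type mice (adjusted p = 0.286), and it passed in both genotypes without mice 376, 198 and 184.

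Col8a1, a short-chain network collagen known from vessel wall and corneal membrane, had -1.67, -1.43, -2.52, -1.62 and -3.21 at day 18 in knock-in mice, against -0.32, 1.93 and 2.98 in virgins. Wild-type mice had -2.16, -1.98, -1.82, -2.35 and -1.92 at day 18, against 0.49, 0.80 and 2.56 in virgins. The stages were apart in both genotypes, and virgins were widely spread. Col8a1 was 11.6-fold lower in knock-in (-3.53 ± 0.47, adjusted p = 2.81e-06) and 9.63-fold lower in wild-type mice (-3.27 ± 0.47, adjusted p = 8.65e-06), and both calls held in every setting tried. Its partner Col8a2 was well above background on 0 of 5 wild-type day-18 arrays. With those arrays set to at least their lowest signal well above background, its mean was 3.2-fold lower there than in virgins. The limma test called it lower in wild-type mice (adjusted p = 0.00745). That call was lost under normexp background correction, and the difference ran from -2.79 to -0.18 over the other settings. In knock-in mice, where 2 of 5 day-18 arrays measured it, Col8a2 differed by -1.12 ± 0.54 and did not pass (adjusted p = 0.0984).

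Col14a1, which binds the surface of fibrils, had -1.73, -0.65, -3.01, -1.97 and -2.77 in knock-in day-18 mice, against -0.63, 0.07 and 0.59 in knock-in virgins. In wild type it had -2.12, -2.31, -2.55, -2.91 and -2.02 at day 18, against -1.08, -0.49 and 0.58 in virgins. No overlap was seen in either genotype, although day-18 mouse 184 at -0.65 lay just under the lowest knock-in virgin at -0.63. The gene was 4.10-fold lower in knock-in (-2.04 ± 0.33, adjusted p = 3.03e-05) and 3.78-fold lower in wild-type mice (-1.92 ± 0.33, adjusted p = 6.41e-05), under every setting tried.

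Of the other fibril-associated genes, Col12a1, Col16a1 and Col20a1 passed in wild-type mice alone. Col12a1 differed by -0.15 ± 0.29 in knock-in and -0.83 ± 0.29 in wild-type mice. Col16a1 differed by -0.40 ± 0.25 in knock-in and -0.80 ± 0.25 in wild-type mice. Col20a1 differed by -0.66 ± 0.30 in knock-in and -1.01 ± 0.30 in wild-type mice. The difference between the genotypes in these stage effects was itself tested and not called, so the genotypes are not shown to differ here.

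Type VI collagen forms beaded filaments near cell surfaces, and most of its genes were lower at day 18. Of 6 members 5 were called lower at day 18 in each genotype, among them Col6a6, whose signal was too dim to bound a difference in wild-type mice. Col6a3 had 3.57, 3.28, 2.40, 3.48 and 2.53 at day 18 in knock-in mice, against 3.47, 4.61 and 5.6 in virgins. Wild-type levels were 3.10, 3.12, 3.16, 2.43 and 3.45 at day 18, against 4.29, 4.85 and 5.58 in virgins. Virgin 376 at 3.47 was the single virgin inside the knock-in day-18 range, and wild-type stages did not overlap. Col6a3 was 3.24-fold lower in knock-in (-1.70 ± 0.32, adjusted p = 1.50e-04) and 3.51-fold lower in wild-type mice (-1.81 ± 0.32, adjusted p = 7.64e-05).

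Its partner Col6a1 was 2.63-fold lower in knock-in and 2.72-fold lower in wild-type mice, and Col6a2 was 3.21-fold lower in knock-in and 3.02-fold lower in wild-type mice. Col6a5 was 3.41-fold lower in knock-in (adjusted p = 0.00103) and 3.91-fold lower in wild-type mice (adjusted p = 3.83e-04). Col6a6 passed the filter through knock-in virgins alone and was well above background on 1 of 5 knock-in and 0 of 5 wild-type day-18 arrays. No fold is given for it, and its calls were kept in 30 of 37 other settings in knock-in and in 13 of 37 in wild-type mice.

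Col6a4, a chain with no full-length human counterpart, had -3.49, -2.11, -3.01, -2.70 and -2.78 in knock-in day-18 mice, against -5.83, -4.29 and -0.92 in knock-in virgins. In wild type it had -2.97, -2.91, -2.73, -2.91 and -2.74 at day 18, against -4.12, -3.80 and -2.59 in virgins. Each genotype had 1 virgin above all its day-18 mice, 376 in knock-in and 188 in wild type, and the others lay below. It was called 2.55-fold higher in knock-in mice (1.35 ± 0.54, adjusted p = 0.0460), a call kept in 11 of 37 other settings. Within slides the knock-in difference was -0.24, 2.63 and 2.36. In wild-type mice the difference of 0.85 ± 0.54 did not pass (adjusted p = 0.215), and it was -0.07 with spike-in scaling.

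Col17a1, the transmembrane collagen of hemidesmosomes, which hold basal epithelial cells to their basement membrane, had -0.39, -0.27, -0.42, -0.48 and -0.35 at day 18 in knock-in mice, against -5.94, -2.05 and -0.81 in virgins. Wild-type mice had -0.06, -0.31, -0.24, -0.13 and -0.37 at day 18, against -1.96, -1.56 and -0.97 in virgins. Every day-18 mouse was above every virgin, the day-18 mice lay close together, and virgin 198 was far below the rest. Col17a1 was 4.12-fold higher in knock-in mice (2.04 ± 0.52, adjusted p = 0.00252). In wild-type mice the difference of 1.23 ± 0.52 did not pass over all arrays (adjusted p = 0.0596) and was called without mouse 198. That mouse is a knock-in virgin and enters the wild-type test through the shared spread. SDs were 0.08 in knock-in day-18 mice, 1.65 in knock-in virgins, 0.13 in wild-type day-18 mice and 0.38 in wild-type virgins. Without mouse 198 the knock-in difference was 1.46 and was still called. The second kept Col17a1 probe differed by 0.83 in knock-in (adjusted p = 0.0641) and by 0.92 in wild-type mice (adjusted p = 0.0402), with p adjusted over all kept probes, so the genotype that passed depended on the probe. Of the other transmembrane genes, Col23a1 was called lower in both genotypes (-1.81 ± 0.61 in knock-in, -1.98 ± 0.61 in wild type), but its probe was well above background on 2 of 5 day-18 arrays of each genotype, so the sizes rest on dim signal. Col13a1 was called lower in wild-type mice alone (-0.92 ± 0.36, adjusted p = 0.0454), a call kept in 17 of 38 other settings.

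Of the remaining members, Col26a1 was 3.32-fold lower in knock-in (adjusted p = 0.00859) and 7.01-fold lower in wild-type mice (adjusted p = 1.21e-04). Its probe was well above background on 3 of 5 wild-type day-18 arrays. Another kept Col26a1 probe differed by -1.71 in knock-in and -3.26 in wild-type mice. A further one differed by 0.23 in knock-in and 0.38 in wild-type mice and was called in neither. The knock-in call was lost with the mean of probes and under normexp background correction. Col7a1, the anchoring fibril of stratified epithelia, and Col28a1 did not pass. Col7a1 differed by 0.55 ± 0.39 in knock-in and -0.30 ± 0.39 in wild-type mice, and Col28a1 by -0.73 ± 0.56 in knock-in and -0.74 ± 0.56 in wild-type mice, with 1 of 5 wild-type day-18 arrays well above background.

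Genes that finish collagen outside the cell were mostly lower at day 18. Of 11 tested genes that trim procollagen or crosslink fibrils, 10 were lower at day 18 in each genotype, with medians of -1.58 in knock-in and -1.89 in wild-type mice. Adamts14 and Adamts2 remove the amino propeptide. Adamts14 differed by -2.10 in knock-in and -2.46 in wild-type mice, and Adamts2 by -1.98 in knock-in and -2.31 in wild-type mice. Bmp1, which removes the carboxyl propeptide, differed by -1.54 in knock-in and -1.72 in wild-type mice. Loxl1, a crosslinking oxidase, differed by -2.38 in knock-in and -2.55 in wild-type mice. Lox did not pass (-0.33 in knock-in, 0.06 in wild type).

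Folding and modification genes were called lower more often than all genes, and higher about as often. Of 20, 9 were lower and 5 higher in knock-in mice, and 11 were lower and 4 higher in wild-type mice. Over all genes 20.4% were lower and 22.6% higher in knock-in mice, and 20.8% lower and 21.0% higher in wild-type mice. Serpinh1, the collagen chaperone, differed by -1.58 in knock-in and -1.62 in wild-type mice on the log2 scale. P4ha1, the catalytic chain of prolyl 4-hydroxylase, differed by -1.82 in knock-in and -1.99 in wild-type mice. P3h3, a partner of lysyl hydroxylation, differed by -1.67 in knock-in and -1.59 in wild-type mice. P3h2, a prolyl 3-hydroxylase that acts on type IV collagen, was higher, at 2.6 in knock-in (adjusted p = 2.27e-09) and 2.87 in wild-type mice (adjusted p = 5.49e-10).

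Small proteoglycans and related proteins of the fibril surface were lower in 7 of 10 cases in each genotype. Lum and Kera are keratan sulfate proteoglycans, Fmod is fibromodulin, and Tnxb is a tenascin. Lum differed by -2.20 in knock-in and -2.14 in wild-type mice, Tnxb by -2.41 in knock-in and -2.22 in wild-type mice, and Kera by -3.39 in knock-in and -3.51 in wild-type mice. Fmod was the single member higher, by 2.26 in knock-in and 2.55 in wild-type mice. Of 10 tested collagen receptor and uptake genes, 5 were lower and 2 higher in knock-in mice, and 3 were lower and 1 higher in wild-type mice. These higher calls did not exceed the share of all genes, 22.6% in knock-in and 21.0% in wild-type mice. Ddr1, the collagen receptor kinase of epithelium, was higher by 2.53 in knock-in and 2.14 in wild-type mice. Ddr2, its relative in mesenchymal cells, differed by -2.40 in knock-in and -2.51 in wild-type mice, and the uptake receptor Mrc2 by -2.28 in knock-in and -2.24 in wild-type mice. Itga11, the integrin chain that binds fibrillar collagen, differed by -3.00 in knock-in and -2.34 in wild-type mice. Each of the partner genes named above except Lox passed the test in both genotypes.

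Knock-in and wild-type glands did not differ detectably in any collagen gene. No member was called in virgins, at day 18, averaged over stages or in the difference of stage effects, and 0% of all genes were called in each of these 4 limma comparisons. At an unadjusted p under 0.05 there were 7 members in virgins, 1 at day 18, 6 averaged and 0 in the difference of stage effects. The shares of all genes were 3.59% in virgins, 1.95% at day 18, 5.15% averaged and 1.03% for the difference. The 38 intervals, not adjusted for the number of genes, had a median half-width of 0.68 in virgins and 0.80 at day 18. Smaller differences could be missed, and larger ones as well, because calls were adjusted over all genes. Col6a6 at 1.26 in virgins and Col6a5 at 1.11 at day 18 were not called. No member had all knock-in mice above or below all wild-type mice, which held for 0.00894% of all genes above and 0.00447% below in virgins, and for 0.442% above and 0.862% below at day 18.

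The type I, III and main type IV genes had intervals that included 0. In virgins the knock-in minus wild-type difference was -0.06 for Col1a1 (95% interval -0.65 to 0.53), -0.18 for Col1a2 (-0.78 to 0.42) and -0.15 for Col3a1 (-0.70 to 0.41). Col4a1 differed by -0.16 (-0.75 to 0.43) and Col4a2 by -0.17 (-0.68 to 0.34). At day 18 the same difference was 0.36 for Col1a1 (-0.34 to 1.06), 0.21 for Col1a2 (-0.50 to 0.92) and 0.02 for Col3a1 (-0.64 to 0.67). These intervals do not show equal levels. Col9a1 differed by -0.23 in virgins (-1.36 to 0.90) and -0.30 at day 18 (-1.64 to 1.04).

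The members with the smallest p values are given because none passed. Col6a5 had -3.68, -1.79, -4.18, -3.24 and -2.68 in knock-in day-18 mice, against -4.54, -4.46, -4.40, -4.04 and -3.68 in wild-type day-18 mice. Among virgins its lowest, median and highest levels were -2.68, -1.41 and 0.09 in knock-in, against -3.11, -2.26 and -1.60 in wild-type mice. Knock-in mice were more often in the upper part, and the groups overlapped at both stages. The difference was 1.11 at day 18 (unadjusted p = 0.0176, limma adjusted p = 1.00), 0.91 in virgins (unadjusted p = 0.0209, adjusted p = 0.711) and 1.01 averaged (unadjusted p = 0.00169, adjusted p = 0.654). Mice 184 and 376 were the highest knock-in mice of their stages, and without them and mouse 198 the virgin difference was 0.68 and the average 0.73. Within slides the virgin difference was 1.69, -0.23 and 0.78, and the day-18 difference was 1.36, 1.24 and 0.82.

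Col16a1 had 2.63, 2.34, 2.89, 2.30 and 3.18 in knock-in day-18 mice, against 2.84, 2.95, 2.92, 2.84 and 3.22 in wild-type day-18 mice. In virgins it had 1.95, 3.05 and 4.03 in knock-in, against 3.33, 3.80 and 4.08 in wild type. Knock-in virgins were mostly lower, with mice 196 and 384 inside the wild-type range. The difference was -0.69 in virgins (unadjusted p = 0.00570, adjusted p = 0.711) and -0.49 averaged (adjusted p = 0.654). With the mean of the gene's probes in place of the brightest, the average was 0.01.

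Col9a2 had -0.64, -0.44, -0.25, -0.85 and 0.08 in knock-in day-18 mice, against -0.01, -0.25, -0.29, 0.19 and 0.18 in wild-type day-18 mice. Its virgin levels were -3.13, -0.70 and 0.67 in knock-in, against -0.49, -0.10 and 0.85 in wild type. Virgin 198 was the lowest mouse, and the genotypes overlapped at both stages. In virgins the difference was -0.88 (unadjusted p = 0.0281, adjusted p = 0.711), and without mouse 198 it was -0.51. The other virgin differences with an unadjusted p under 0.05 were -1.03 for Col4a6, -0.97 for Col17a1, -0.82 for Col7a1 and -0.56 for Col12a1. Without mouse 198 these 4 were -0.53, -0.39, -0.61 and -0.50 and none had a p under 0.05, leaving 2 members, Col6a5 and Col16a1. Without mice 376, 198 and 184 there were 5, namely Col16a1, Col6a5, Col6a4 (-0.80, unadjusted p = 0.0128), Col8a2 (-0.72, unadjusted p = 0.0122) and Col6a6 (0.67, unadjusted p = 0.0434), again with none called. Averaged over stages the count was 6 both over all arrays and without these mice. Over all arrays, all 10 luminal epithelial markers had a negative knock-in minus wild-type difference in virgins, with a median of -1.16. Of 10 myoepithelial markers 9 did, with a median of -0.65. Mouse 198 had the lowest mean level of the knock-in virgins for both lists, -3.47 luminal and 0.09 myoepithelial. Group medians in virgins were 1.73 in knock-in and 2.30 in wild type for luminal markers, and 2.58 and 2.72 for myoepithelial markers. Of 10 skeletal muscle markers 9 had a positive difference in virgins (median 1.74) and 10 at day 18 (median 3.80). None of these markers was called, and their part in the collagen values was not tested.

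**Figure D5:**
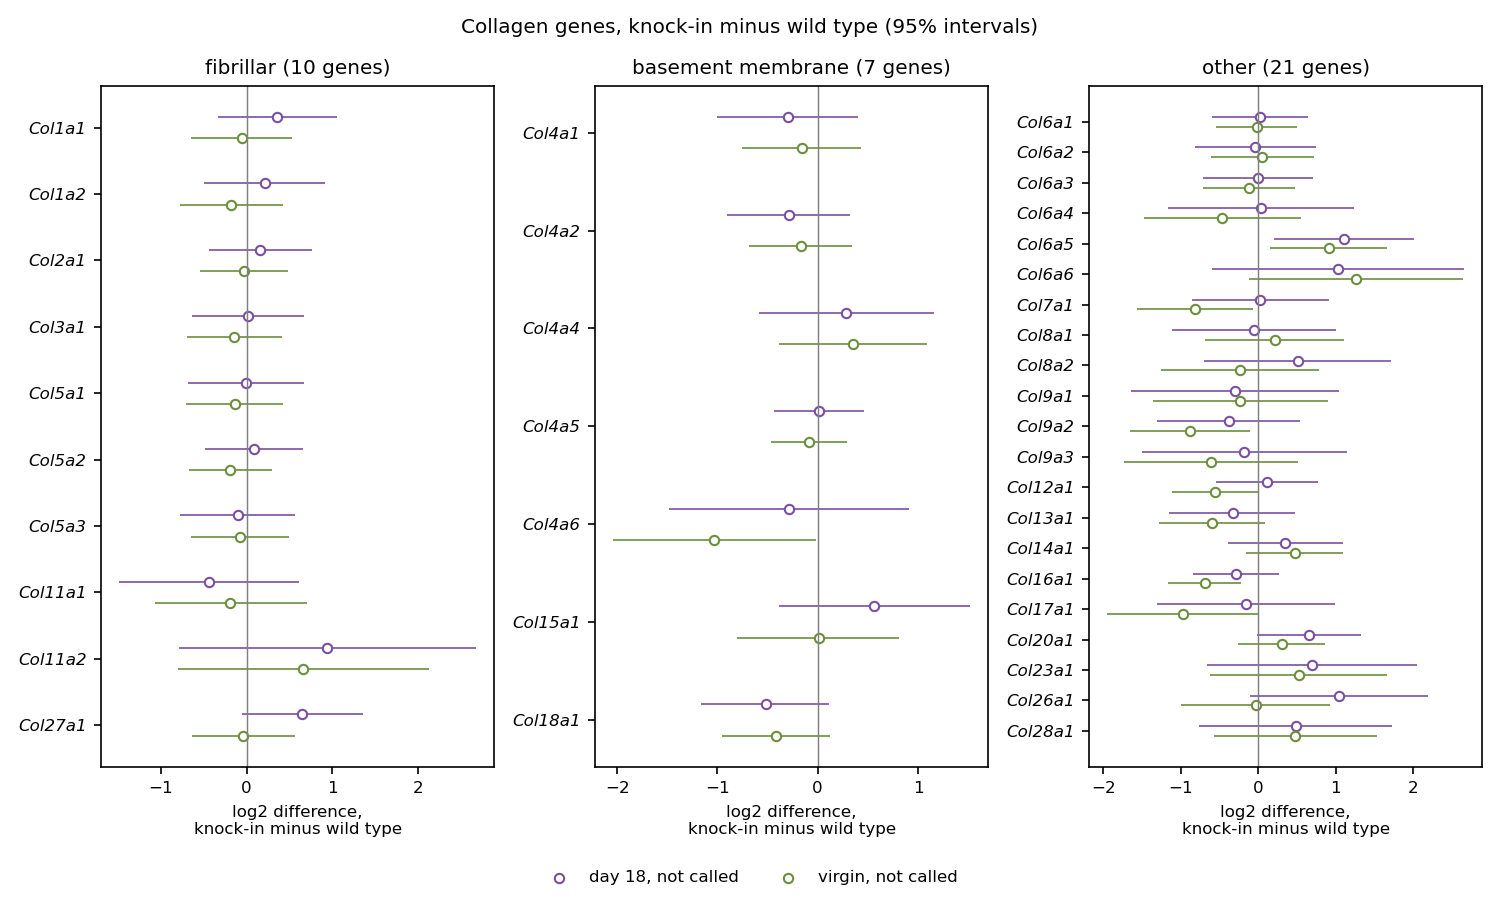
Log2 differences between knock-in and wild-type glands (horizontal axis, knock-in minus wild type) with 95% intervals for the 38 tested collagen genes by class, at day 18 (purple, upper point) and in virgins (green, lower point); open points did not pass an adjusted p under 0.05. None passed, and the intervals include 0 for all but 7 members in virgins and 1 at day 18.

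Col20a1 had -3.30, -2.85, -2.87, -2.84 and -3.22 in knock-in day-18 mice, against -4.38, -3.38, -3.13, -3.53 and -3.94 in wild-type day-18 mice. Its virgins had -3.76, -2.15 and -1.33 in knock-in, against -3.29, -2.53 and -2.23 in wild type. At day 18 most knock-in mice were higher, with some overlap. The day-18 difference was 0.66 (unadjusted p = 0.0540, adjusted p = 1.00). Col27a1, whose levels are given above, differed by 0.65 at day 18 (unadjusted p = 0.0693, adjusted p = 1.00) and by -0.04 under quantile normalization. Averaged over stages, Col18a1 differed by -0.47 (unadjusted p = 0.0292, adjusted p = 0.654) and by -0.33 without mice 376, 198 and 184; its levels are given above.

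The stage effects of the genotypes were set against each other directly. Over all arrays no member had an unadjusted p under 0.05, and the smallest belonged to Col12a1, Col27a1 and Col7a1. Without mice 376, 198 and 184, Col26a1 had a difference of 1.31 (unadjusted p = 0.0262, limma adjusted p = 0.853), against 1.08 over all arrays (unadjusted p = 0.150). Col12a1 had -2.69, -2.03, -2.47, -3.06 and -1.77 in knock-in day-18 mice and -2.82, -2.58 and -0.93 in knock-in virgins. In wild-type mice it had -2.58, -2.51, -2.50, -2.15 and -2.86 at day 18 and -2.54, -1.61 and -1.37 in virgins. The stages overlapped in both genotypes, in wild type through virgin 365. Its stage effect differed between genotypes by 0.67 (knock-in minus wild type, 95% interval -0.18 to 1.53, unadjusted p = 0.117, adjusted p = 1.00).

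Col7a1 had 0.94, 1.27, 2.11, 1.08 and 2.12 in knock-in day-18 mice and -0.29, 0.94 and 2.93 in knock-in virgins. It had 0.95, 1.51, 1.82, 1.59 and 1.5 in wild-type day-18 mice and 1.12, 1.74 and 2.76 in wild-type virgins. All groups overlapped. The stage effect differed by 0.85 (95% interval -0.30 to 2.0, unadjusted p = 0.141, adjusted p = 1.00), and that of Col27a1 by 0.69 (-0.23 to 1.62, unadjusted p = 0.136, adjusted p = 1.00). The other kept Col27a1 probe was lower by more in knock-in (-2.11) than in wild-type mice (-1.84), so the direction depended on the probe. The 5 members called lower in the wild-type comparison alone (Col8a2, Col12a1, Col13a1, Col16a1 and Col20a1) and the 3 called higher in knock-in mice alone (Col4a6, Col6a4 and Col17a1) are thus not shown to differ between genotypes.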

How the data were processed

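RNA of 24 mammary glands was measured on 1-colour arrays. The authors extracted spot intensities with Agilent Feature Extraction 12.0.3.2, per the file headers. The deposited processed signal is an intensity after background subtraction and spatial detrending of each array, not scaled across arrays, and quality calls are 0 or 1. The deposited series matrix holds log10 values of the same signal (largest difference 0.0050), used as an alternative.

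Outlier spots were set to missing and replicate spots averaged. Log2 of the processed signal minus the array's 75th percentile was used. Probes had to be well above background on 80% or more of the arrays in 1 or more groups, and the brightest kept probe stood for a gene. This left 65 of 92 collagen probes, and 22382 genes with 162 missing values, which the fit omits. None of the 59305 spots that are not controls was saturated. A group that was above background on no array has only a bound, set by the lowest signal well above background on each array.

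Using limma 3.58.1 in R 4.3.3 with the package data.table, version 1.17.8, all 24 arrays entered 1 fit with a term for each group, after the script was tested on simulated data. Comparisons were day 18 minus virgin in each genotype, knock-in minus wild type at each stage and averaged, and the difference of stage effects. Median standard errors were 0.27 for stage, 0.24 for genotype in virgins and 0.29 at day 18; the number of arrays limits the precision.

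The members, gene lists, tests and the arrays left out were chosen with earlier results of these data known. Full values are given for the 4 members per class with the smallest adjusted p in the wild-type stage comparison, the 3 smallest p values of each genotype comparison where none passed, and members called against the direction of most in their class. Col1a1 was added after its values were seen. Of the 4 partner lists, genes were named by the 4 smallest adjusted p values in the wild-type stage comparison; Lox was added afterwards. Alternatives were other scalings, background correction, filters, probe rules, slide as a block, array weights, samples left out, only the groups compared, and the deposited table. Coordinates of probes are on mm9, per the files; promoters come from RefSeq on GRCm38.p6 and were trimmed to end at or before the first annotated start.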

Additional observations from a re-analysis of the deposited data

Results flagged for a closer look

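For 21 collagen genes and 4 groups, 84 groups of 5 or 7 mice, a single mouse was sought whose gap to its nearest neighbour took up most of the group's range. In a single group chance alone gives about 1 in 20, and 7 were found. The genes share the same mice and are not independent, so this count cannot be set against that rate. Of the 7, 3 were knock-in virgin 376 and 2 were knock-in virgin 198. Mouse 376 had 1.26 for Col18a1 (next lowest 2.81), 3.28 for Col5a3 (next lowest 4.80) and -0.92 for Col6a4 (next highest -3.84). Its negative control signal of 58.7 was the highest of all arrays, and its part in these values was not tested. Mouse 198 had -5.94 for Col17a1 (next lowest -2.47) and -4.20 for Col4a6 (next lowest -1.77), beside a mean of -3.47 over luminal and 0.09 over myoepithelial markers. Wild-type virgin 365 had -2.54 for Col12a1 (next lowest -1.69), and wild-type virgin 188 had -2.59 for Col6a4 (next highest -3.64).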

How the results depend on the processing

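No collagen gene was called in a genotype comparison under any setting tried. No paired analysis was possible because the mouse numbers in the labels all differ between groups. Of the collagen calls, 6 of 20 lower and 1 of 5 higher in knock-in mice, and 9 of 25 lower and 1 of 2 higher in wild-type mice, passed in all settings. Median scaling left 11 lower in knock-in and 14 in wild-type mice, and normexp left 15 in knock-in and 17 in wild-type mice, with medians of -0.53 in knock-in and -0.60 in wild-type mice. Testing each of 65 probes alone gave 37 lower in knock-in and 43 in wild-type mice. The number higher in knock-in mice was 1 with spike-in scaling, 3 with probes above background on all arrays (28 genes tested) and 3 with only the groups compared. In wild-type mice it was 1 with spike-in scaling, 4 with quantile normalization, 4 with normexp, 4 with array weights, 7 with only the groups compared and 7 without mice 376, 198 and 184 (Col4a5, Col4a6, Col6a4, Col9a1, Col9a3, Col11a1 and Col17a1). Leaving out 1 array at a time gave 17 to 22 lower and 3 to 7 higher in knock-in mice (3 without 210 or 239, 7 without 376), and 22 to 26 lower and 2 to 3 higher in wild-type mice (3 without 196, 376 or 198). Signs turned for Col27a1 at day 18 between genotypes (-0.04, quantile), for Col6a4 (-0.07) and Col4a6 (-0.08) between stages in wild type (spike-in), and for Col16a1 averaged between genotypes (0.01, mean of probes); the cause was not tested. Under spike-in scaling the median stage difference of all genes was -0.78 in knock-in and -0.90 in wild-type mice, and the number lower was 28 in knock-in and 30 in wild-type mice. Weak signal limits Col4a4, Col6a6, Col8a2, Col11a2, Col23a1, Col26a1, Col27a1 and Col28a1, among others, whose probes were not well above background on some or all day-18 arrays.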
